A study of Mus musculus with 2 samples.

Results

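The RAB genes encode small GTPases that mark the membranes of the cell and direct the vesicles that move between them. Each RAB protein is switched on when an exchange factor loads it with GTP, and binds effectors such as tethers and motors in that state. It is switched off by a GTPase-activating protein, often one of the TBC family. A lipid added to the end of the protein holds it in the membrane, and an escort or extraction factor carries it through the cytosol. Related RAB genes often share a number and differ by a letter, and such paralogues can have overlapping or separate sites of action.

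Members were taken by name: every probe whose gene symbol in the deposited table was Rab followed by a number and at most a letter and a further digit. The rule gave 56 of the 20161 named genes on the array, measured by 106 of its 41174 probes. Of these, 4 genes were renamed through their gene ID to the current symbols Rab1a, Rab2a, Rab6a and Rab29. The family was put forward with the comparison described here already in view, so the values of its members are a description and are not offered as a test of the family.

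The study asked which mRNAs are bound by Nanos2, an RNA-binding protein of male germ cells. The tissue was the male gonad of MCH mice at embryonic day 14.5, and all of it carried a transgene, by its label a Nanos2 enhancer, 3xFLAG-tagged Nanos2 and the Nanos2 3′UTR. RNA recovered with agarose that carries the M2 antibody against FLAG (FLAG IP) was compared with input RNA, taken with no antibody, on 2 one-colour Agilent whole mouse genome arrays per group. The duplicates are called biological in the series text. The labels do not say whether gonads were pooled or how many lines carry the transgene, and no precipitate from gonads that lack it was used here, so the background of the agarose was not measured.

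Values are given as scaled signal, the processed signal divided by the 75th percentile of its array, so that 1 is a fairly bright spot; levels of different genes are not compared, since each rests on its own probe. The log2 fold change is that of FLAG IP over input, with the moderated standard error (SE) from limma and n = 2 arrays per group, except where an array is said to be left out. A gene is called higher or lower where its p-value from limma, adjusted by the Benjamini-Hochberg method over all 15266 genes tested, was below 0.05. In the FLAG IP the 75th percentile was 55.7 intensity units for replicate 1 and 608 for replicate 2, against 1026 and 1038 in the input. On the dim FLAG IP replicate 1, no gene with a scaled signal under 0.147 was well above background. Nanos2 itself had a scaled signal of 1.48 and 1.22 in the FLAG IP and of 0.398 and 0.337 in the input.

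The defining markers of the labelled tissue were present. All 5 germ cell, all 5 Sertoli cell and all 5 Leydig cell markers were well above background on both input arrays. Of 24 tested markers of Sertoli, Leydig, mesenchymal, endothelial, macrophage and red blood cells, 22 were called lower and 0 higher in the FLAG IP by limma, none had a log2 fold change above 0, and their summed scaled signal was 68.2 and 56.4 in the FLAG IP against 488 and 459 in the input. Of 5 germ cell markers 3, Nanos2 among them, were called higher and 1 lower, with summed scaled signals of 82.3 and 75.4 in the FLAG IP and 34.6 and 37.4 in the input. Ddx4 alone gave 57.3 and 38.1 of the FLAG IP sums. Whether the Nanos2 probe also reads RNA of the transgene was not tested. Among 4 neuronal markers 2 were called higher and 0 lower. Of these calls, Stmn2 was clear of background on 1 FLAG IP array and Snap25 on 1 input array. The sums, 2.03 and 0.974 in the FLAG IP and 1.96 and 2.23 in the input, overlapped. They came mostly from Tubb3, which was not called at -1.12. The part of these shifts in the RAB values was not tested. A fold change here compares precipitated RNA with input RNA of the same kind of tissue, so it does not measure cell numbers or RNA per cell.

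RAB genes were found in both directions. Of 54 tested RAB genes, 13 were called higher (24.1%, beside 28.0% of all genes tested) and 12 lower (22.2%, beside 25.4% of all genes tested), and 29 were not called. The median log2 fold change was 0.04 over the RAB genes and 0.07 over all genes tested. The 2 groups did not overlap for 38 of the 54 genes (70.4%, beside 80.2% of all genes tested). The genes ran from a log2 fold change of 3.94 for Rab39 to -3.43 for Rab13, which was clear of background on 1 FLAG IP array and passed the filter through the input alone. Rab3c and Rab27b were not tested, because none of their 5 probes reached well above background on 2 arrays of a group.

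**Figure D1:**
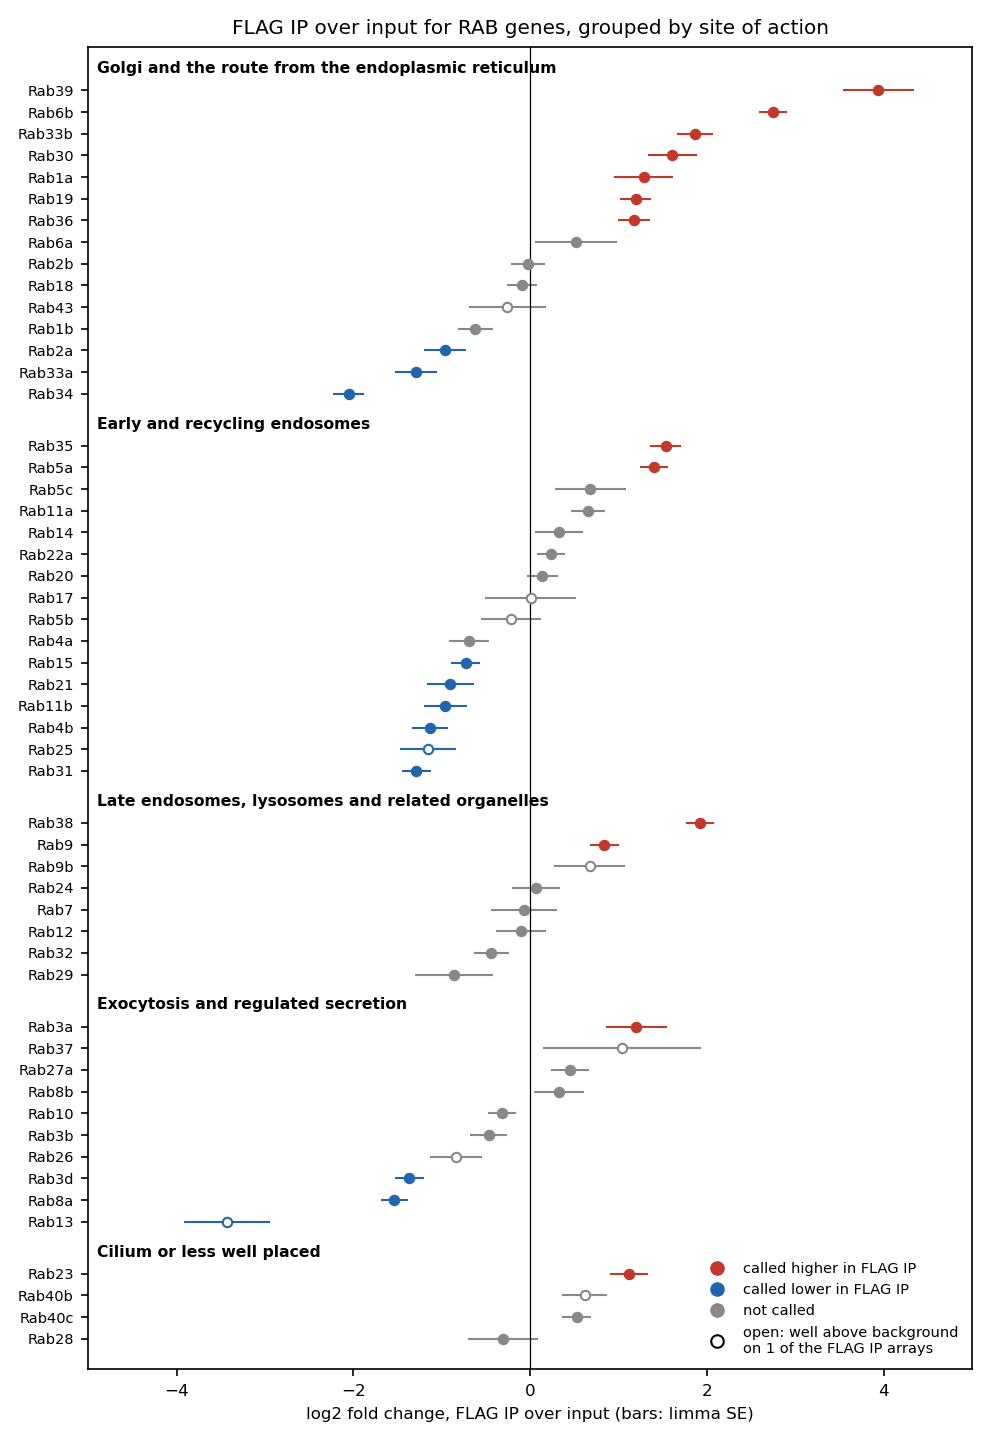
Log2 fold change of FLAG IP over input (horizontal axis; bars are the SE from limma, 2 arrays per group) for each tested RAB gene, grouped by the site where its protein is best known to act; red genes were called higher, blue ones lower and grey ones were not called. Genes called higher and genes called lower occur together in 3 of the 5 groups, and the genes run from Rab39 at 3.94 to Rab13 at -3.43, an open point like the others that were clear of background on 1 FLAG IP array; Rab39b, which was not well above background on either FLAG IP array, is not drawn.

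Among 16 RAB genes of the Golgi and of the route to it from the endoplasmic reticulum, 7 were called higher (43.8%, beside 28.0% of all genes tested), 3 lower (18.8%, beside 25.4%) and 6 were not called, with a median of 0.49. The grouping into sites was made for this description, and several RAB proteins act at more than 1 of them. Rab39, whose protein is linked to the Golgi and to late endosomal traffic, had a scaled signal of 0.238 and 0.463 in the FLAG IP, against 0.0187 and 0.0250 in the input. Both FLAG IP arrays lay far above both input arrays, and the log2 fold change was 3.94 ± 0.40 (SE). In the authors' deposited table, where the values are pooled and carry no error, the ratio of FLAG IP to input was 14.0 for this probe. Rab6b, the form of the Golgi GTPase Rab6 that is enriched in brain, had 4.81 and 4.92 in the FLAG IP and 0.700 and 0.746 in the input. The replicates of each group were close, and the log2 fold change was 2.75 ± 0.16. A further Rab6b probe gave 3.51, so both probes of this gene were called higher.

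The other Golgi genes that were called higher changed less. Rab33b, which acts at the Golgi and binds a component of the autophagy machinery, had 1.62 and 1.24 in the FLAG IP and 0.405 and 0.374 in the input (1.87 ± 0.21). Rab30, needed for the structure of the Golgi, had 2.59 and 1.64 in the FLAG IP and 0.670 and 0.682 in the input (1.61 ± 0.28). These groups did not overlap either, although the FLAG IP replicates of Rab30 lay further apart than its input replicates. Rab1a, which serves transport from the endoplasmic reticulum to the Golgi, had 51.9 and 29.0 in the FLAG IP and 15.9 on both input arrays (1.29 ± 0.33), but its weaker probe stood at -0.15 and was not called. Rab19 had 0.558 and 0.621 in the FLAG IP and 0.273 and 0.243 in the input (1.19 ± 0.17). Rab36, which positions late endosomes and lysosomes from the Golgi, stood at 1.18 ± 0.18.

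In the opposite direction, Rab34, a Golgi GTPase that is also needed to build cilia, had 3.61 and 3.05 in the FLAG IP and 14.1 and 13.4 in the input. It fell by 2.05 ± 0.18 on the log2 scale, and its further tested probe fell by 2.23. Rab33a, the paralogue of Rab33b, had 0.532 and 0.374 in the FLAG IP and 1.11 and 1.07 in the input and fell by 1.29 ± 0.24. Rab2a, which works between the endoplasmic reticulum and the Golgi, had 5.25 and 3.75 in the FLAG IP and 9.15 and 8.13 in the input and fell by 0.96 ± 0.24. The other Rab2a probe, with 4.44 and 4.24 in the FLAG IP and 5.32 and 5.26 in the input, was not called at -0.29. For all 3 genes, by the brightest probe, both FLAG IP arrays lay below both input arrays. Rab18 (-0.09 ± 0.17) and Rab2b (-0.02 ± 0.20) were not called. A weaker Rab2b probe, clear of background on only 1 FLAG IP array, was called lower at -1.24.

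**Figure D2:**
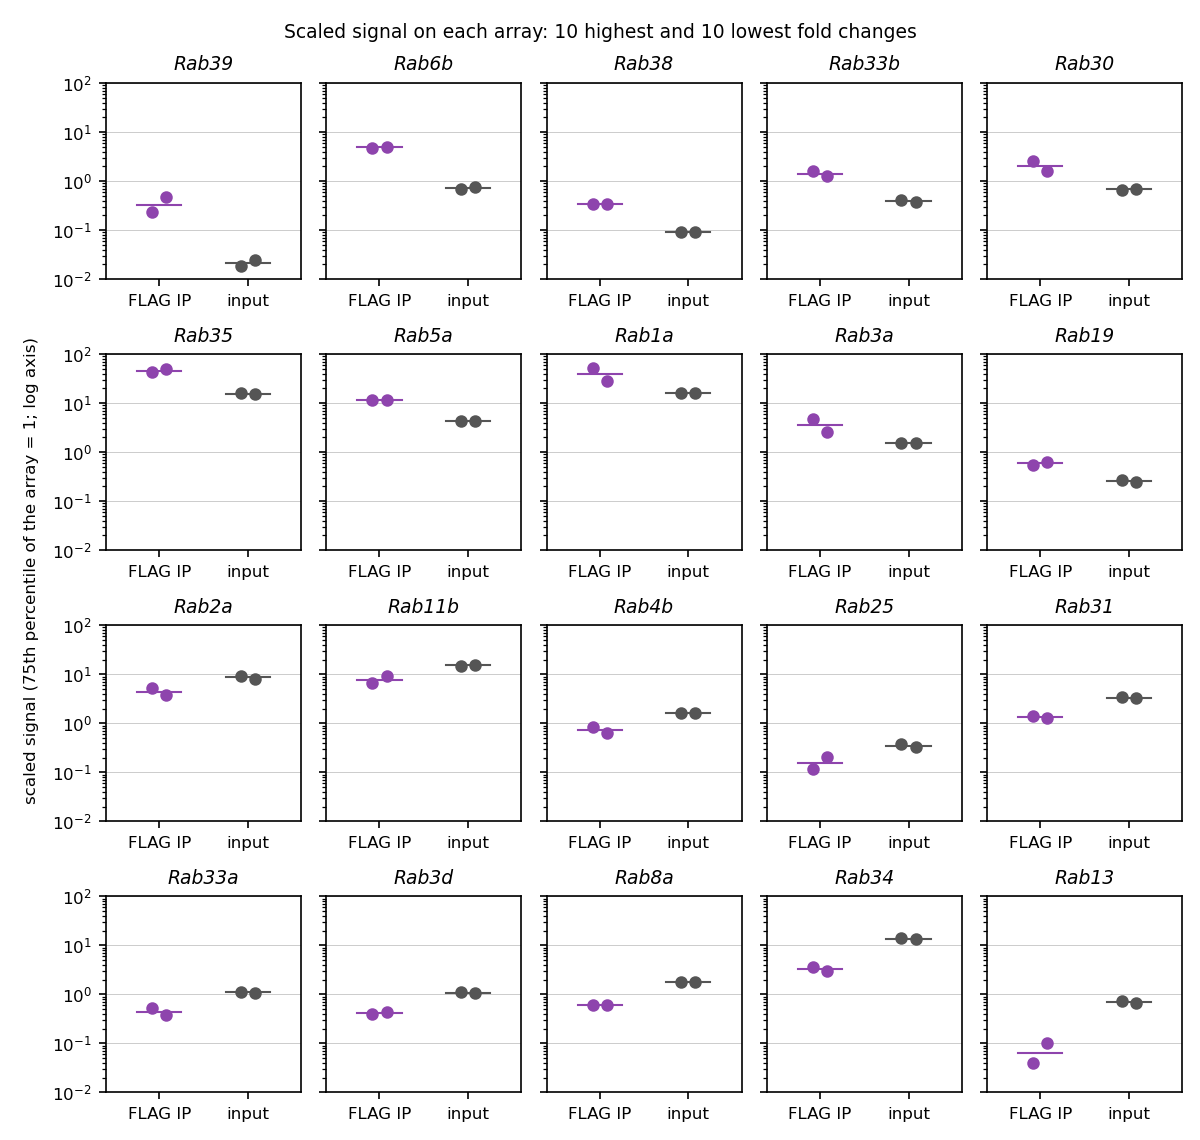
Scaled signal on each array (vertical log axis, 1 is the 75th percentile of the array) for the 10 RAB genes with the highest and the 10 with the lowest log2 fold change; each point is 1 array, FLAG IP left of input, and the line is the geometric mean. In each of the 20 panels the FLAG IP points and the input points do not overlap. The panels were chosen by fold change on these same arrays, which favours this, and 80.2% of all genes tested did not overlap. The FLAG IP points lie further apart in panels such as Rab39 and Rab13. Panels rest on different probes and are not compared in level.

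Early and recycling endosomes carry another 16 of the genes, and here 2 were called higher (12.5%, beside 28.0% of all genes tested) and 6 lower (37.5%, beside 25.4%), with a median of -0.11. Rab35, which drives fast recycling and the last step of cell division, had 42.2 and 48.9 in the FLAG IP and 15.8 and 15.6 in the input (1.53 ± 0.17). Rab5a, which governs the fusion of early endosomes, had 11.5 and 11.6 in the FLAG IP and 4.41 and 4.35 in the input (1.40 ± 0.15). For both genes every FLAG IP array lay above every input array. Rab31, which carries cargo from the Golgi to endosomes, had 1.43 and 1.30 in the FLAG IP and 3.43 and 3.24 in the input, and fell by 1.29 ± 0.16. Rab4b, a GTPase of rapid recycling, had 0.834 and 0.645 in the FLAG IP and 1.59 and 1.63 in the input, and fell by 1.13 ± 0.20. Rab11b, of slow recycling, had 6.48 and 9.39 in the FLAG IP and 15.0 and 15.3 in the input, and fell by 0.96 ± 0.24. Both tested probes of Rab31 and of Rab11b were called lower. The weaker Rab31 probe was clear of background on only 1 FLAG IP array and passed the filter through the input alone, so it adds little.

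The remaining calls among the endosomal genes were small or rested on dim spots. Rab15, an endosomal GTPase best known from neurons, fell by 0.73 ± 0.17. Rab25, the epithelial relative of Rab11, had 0.119 and 0.205 in the FLAG IP, with only 1 of these arrays well above background, and 0.369 and 0.328 in the input, and fell by 1.15 ± 0.32. Rab21, which acts in the traffic of integrins, was called lower by 0.90 ± 0.26 through its brightest probe, with 0.506 and 0.769 in the FLAG IP and 1.22 and 1.12 in the input. Its other probe had 0.601 and 0.599 in the FLAG IP and 0.312 and 0.317 in the input, and was called higher at 0.93 when every probe was fitted on its own. In that fit the brightest probe lost its call, and the mean of both probes stood at 0.015. The direction of Rab21 therefore depends on the probe.

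Late endosomes, lysosomes and related organelles were represented by 8 genes, of which 2 were called higher (25%, beside 28.0% of all genes tested) and 0 lower (beside 25.4%) by limma. At an unadjusted p under 0.05 the counts in this group were likewise 2 and 0. Rab38, which delivers enzymes to pigment granules and related organelles, had 0.344 and 0.342 in the FLAG IP and 0.0916 and 0.0893 in the input (1.92 ± 0.15). Rab9, which returns receptors from late endosomes to the Golgi, had 8.73 and 7.92 in the FLAG IP and 4.76 and 4.54 in the input (0.84 ± 0.16). Rab7, the main GTPase of late endosomes, had 1.86 and 3.65 in the FLAG IP and 2.66 and 2.80 in the input, so that its FLAG IP arrays lay on either side of the input, with a log2 fold change of -0.06 ± 0.37.

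Of 10 tested RAB genes of exocytosis and regulated secretion, 1 was called higher (10%, beside 28.0% of all genes tested) and 3 lower (30%, beside 25.4%), with a median of -0.39. Rab3a, the GTPase of synaptic vesicles, had 4.81 and 2.60 in the FLAG IP and 1.54 and 1.53 in the input (1.20 ± 0.35). Rab3d, found on secretory granules of gland cells, had 0.399 and 0.442 in the FLAG IP and 1.11 and 1.06 in the input, and fell by 1.37 ± 0.16. Rab8a, which serves exocytosis and the growth of cilia, had 0.621 and 0.607 in the FLAG IP and 1.75 and 1.81 in the input, and fell by 1.54 ± 0.16. Its further probe fell by 0.91. Rab13, which acts in the assembly of tight junctions, had 0.0407 and 0.101 in the FLAG IP and 0.718 and 0.661 in the input, and fell by 3.43 ± 0.48. Only 1 of its FLAG IP arrays was well above background, and the value on the other lies in the range where FLAG IP replicate 1 did not measure. In the authors' deposited table, made from the same arrays, the pooled ratio of FLAG IP to input was 0.0855 for this probe. A dim further Rab13 probe, which was not tested, stood the other way. It had 0.0670 and 0.0372 in the FLAG IP and 0.0116 and 0.0119 in the input, with a deposited ratio of 3.91.

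The last 4 genes act at the cilium or are less well placed. Rab23, which restrains Hedgehog signalling at the cilium, had 7.97 and 5.96 in the FLAG IP and 3.02 and 3.34 in the input and was called higher at 1.12 ± 0.22, while its weaker probe stood at 0.36 and was not called. Rab28 (-0.31 ± 0.39), Rab40b (0.62 ± 0.25) and Rab40c (0.53 ± 0.16) were not called.

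The 29 genes without a call ran from -0.86 to 1.04, and 18 of them lay within 0.5 of 0. Both ends of this range had wide errors. Rab29, at -0.86 ± 0.44, had 0.440 and 1.0 in the FLAG IP and 1.23 and 1.18 in the input. Rab37, at 1.04 ± 0.90, had 0.117 and 0.0203 in the FLAG IP and 0.0249 and 0.0225 in the input, so its difference came from FLAG IP replicate 1 alone, where it was below the range measured.

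Paralogues with the same number stood apart in several cases. There were 11 such families with at least 2 genes measured in the FLAG IP, and in 6 of them the genes lay on both sides of 0. Members were called in opposite directions in 2 families. Rab33b was called higher and Rab33a lower, 3.16 apart on the log2 scale, and Rab3a was called higher and Rab3d lower, 2.57 apart, with Rab3b between them at -0.47 ± 0.21. Rab3a was not called when every probe was fitted on its own, so the opposite calls in that family depend on the fit. In other families only 1 member was called. Rab6b stood 2.23 above Rab6a (0.52 ± 0.46), Rab1a 1.91 above Rab1b (-0.62 ± 0.20), Rab8b (0.33 ± 0.29) 1.86 above Rab8a, and Rab11a (0.65 ± 0.19) 1.61 above Rab11b. Rab5a stood at 1.40, Rab5c at 0.68 ± 0.40 and Rab5b, dim on 1 FLAG IP array, at -0.21 ± 0.34. The families with the closest members were Rab40 (0.09 apart), Rab9 (0.17 apart) and Rab4 (0.44 apart). The gaps use the brightest probe of each gene and depend on it: a weaker Rab1b probe was called lower at -0.80, the weaker Rab1a probe stood at -0.15, and an Rab11a probe was called higher at 1.46. The gaps were not tested, and near-identical stretches of paralogues could be read by the same probe.

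**Figure D3:**
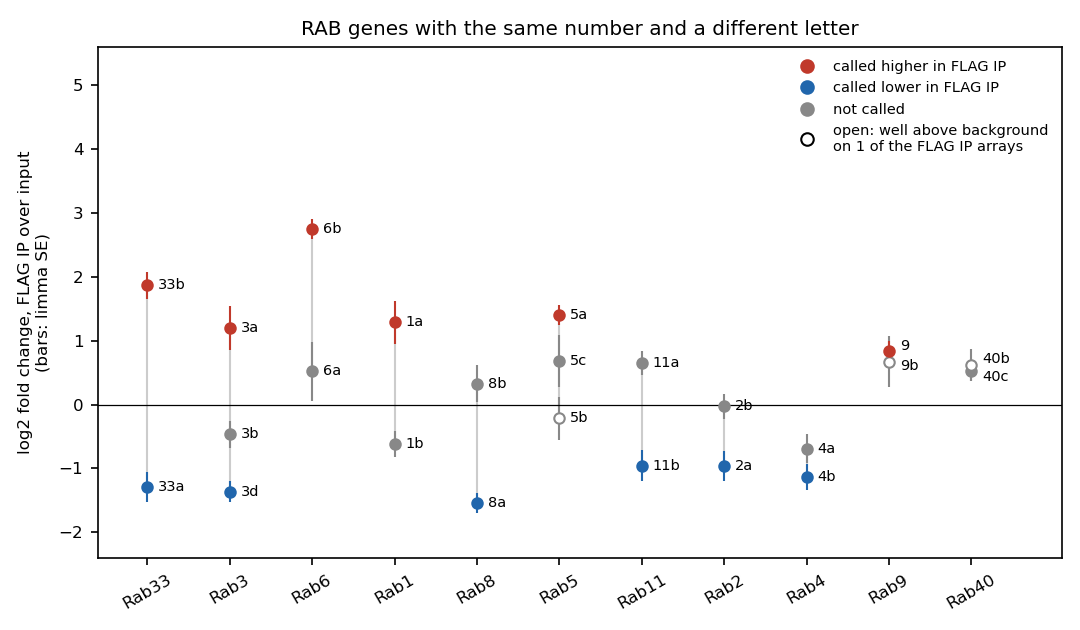
Log2 fold change of FLAG IP over input (vertical axis; bars are the SE from limma) for RAB genes that share a number, with families in order of the gap between their genes; open points were well above background on 1 FLAG IP array. Rab33 and Rab3 hold genes called in opposite directions, 3.16 and 2.57 apart, and the genes of Rab9 and Rab40 lie close together.

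Different probes of the same RAB gene were compared by fitting every probe on its own. Of the 106 probes 90 were tested, and 17 were called higher (beside 24.6% of all probes tested) and 18 lower (beside 23.4%). In this fit, which has its own adjustment and its own moderated SE, the probes of Rab3a, Rab21 and Rab25 that stand for their genes lost their calls. Among 27 genes with more than 1 probe measured in the FLAG IP, 0 had probes called in opposite directions by limma, which rests on the lost call of Rab21, and 8 had probes on both sides of 0 and 7 had probes more than 1 apart on the log2 scale. The median gap between the outermost probes of a gene was 0.63. Rab12 had the widest gap. Its brightest probe had 4.26 and 2.72 in the FLAG IP and 3.93 and 3.40 in the input and stood at -0.10. Another had 0.0482 and 0.0630 in the FLAG IP, where it was clear of background on 1 array, and 0.468 and 0.454 in the input, and was called lower at -3.06. For Rab11a the probes gave 1.46, which was called, 0.65 and -0.57. For Rab22a, a GTPase of early endosomes, the brightest probe gave 0.23 and was not called, whereas the 2 weaker ones were called higher at 1.93 and 1.37. For Rab8b a weaker probe was called lower at -0.89, beside 0.33 for the probe that stands for the gene. Rab2b likewise had a weaker probe called lower at -1.24, beside -0.02. Each of these 2 weaker probes was clear of background on only 1 FLAG IP array and passed the filter through the input alone. For Rab2a the probe that stands for the gene was called lower at -0.96, whereas the other, at -0.29, was not called. The choice of the brightest probe thus set the call of these genes.

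**Figure D4:**
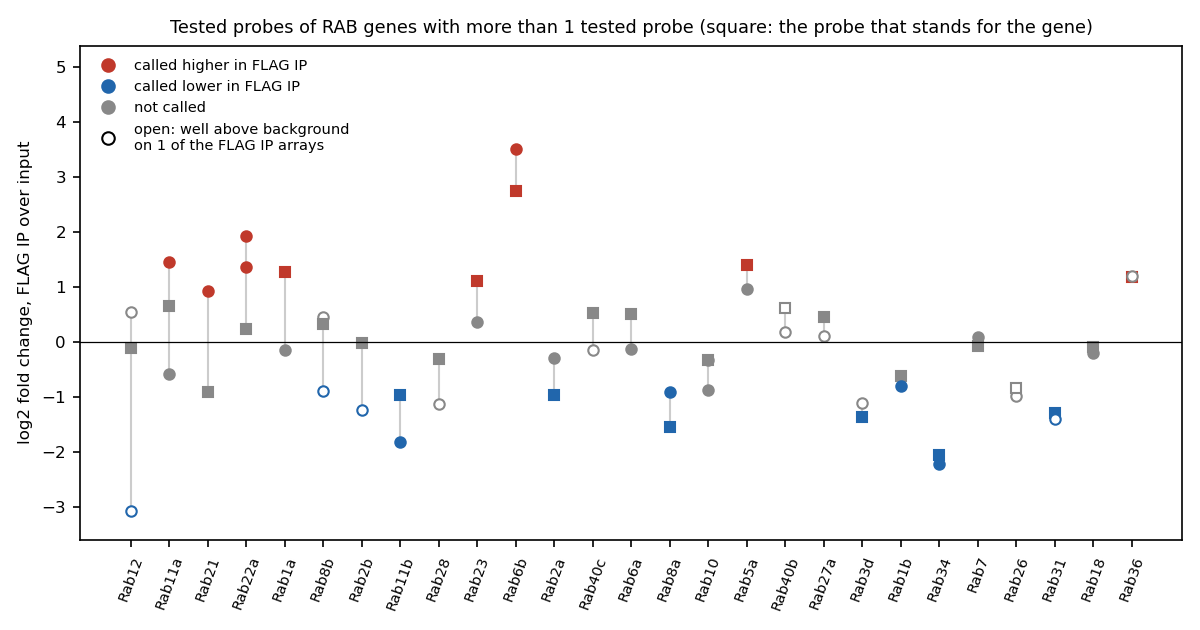
Log2 fold change of FLAG IP over input (vertical axis) for each tested probe of the 27 RAB genes with more than 1 probe measured in the FLAG IP, in order of the gap between probes; squares are the probes that stand for their gene. The probes of Rab12 lie furthest apart, from 0.55 to -3.06, and those of Rab36, Rab18 and Rab31 lie within about 0.11 of each other.

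Genes that regulate or read RAB proteins stood higher more often than lower in the FLAG IP. Of 121 tested genes of this machinery 49 were called higher (40.5%, beside 28.0% of all genes tested) and 15 lower (12.4%, beside 25.4%), with a median of 0.61. The list was written with earlier results of these data known. After normexp background correction, 10 of them were called higher (8.26%, beside 8.33% of all genes in that setting) and 5 lower (4.13%, beside 9.16%), and the median relative to all genes was 0.25, against 0.54 without it. With no filter on dim probes, it was 0.09 relative to all genes. It was 0.69 relative to all genes without FLAG IP replicate 1 and 0.39 without FLAG IP replicate 2.

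By role, 11 of 34 exchange factors were called higher (32.4%, beside 28.0% of all genes tested) and 4 lower (11.8%, beside 25.4%), with a median of 0.38. After normexp correction 0 were higher (beside 8.33% of all genes) and 2 lower (beside 9.16%) by limma. Relative to all genes their median was 0.31 without this correction and 0.19 with it. It was also 0.31 when input replicate 1 or input replicate 2 was left out. Without FLAG IP replicate 1 it was 0.36, and without FLAG IP replicate 2 it was 0.17. Dennd2c rose by 2.67, Dennd1c by 1.29, and Gapvd1 and Rabif by 1.22 each. In the other direction Rin3, an exchange factor for Rab5, fell by 2.18, Rgp1, part of the exchange factor for Rab6, by 1.64, Dennd6b, clear of background on 1 FLAG IP array, by 1.5 and Sbf1 by 0.69. Relative to all genes, the median of the exchange factors was -0.16 with no filter on dim probes. Of 37 GTPase-activating proteins 18 were called higher (48.6%, beside 28.0% of all genes tested) and 4 lower (10.8%, beside 25.4%), with a median of 0.76. After normexp correction 2 of the 37 were higher (beside 8.33% of all genes) and 1 lower (beside 9.16%). Relative to all genes their median was 0.69 without this correction, 0.30 with it, and 0.21 with no filter on dim probes. It was 0.65 without input replicate 1 and 0.73 without input replicate 2. Without FLAG IP replicate 1 it was 0.89, and without FLAG IP replicate 2 it was 0.43. Tbc1d15, which acts on Rab7, rose by 2.09, Tbc1d22b by 2.03, Tbc1d10a, which acts on Rab27 and Rab35, by 1.62 and Tbc1d10c by 1.57. Tbc1d16 fell by 4.13 and Evi5l by 1.55, each clear of background on only 1 FLAG IP array, Tbc1d9b by 1.51 and Tbc1d7, also a part of the TSC complex, by 1.04.

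Of 43 effectors 19 were called higher (44.2%, beside 28.0% of all genes tested) and 6 lower (14.0%, beside 25.4%), with a median of 0.70. After normexp correction 8 of the 43 were higher (beside 8.33% of all genes) and 1 lower (beside 9.16%). Relative to all genes their median was 0.63 without this correction, 0.29 with it, and 0.15 with no filter on dim probes. It was 0.64 without input replicate 1 and 0.62 without input replicate 2. Without FLAG IP replicate 1 it was 0.75, and without FLAG IP replicate 2 it was 0.44. Exoc6, the subunit of the exocyst that binds Rab11, rose by 2.85, Rab11fip1, which links Rab11 to recycling, by 2.78, Myrip, which links Rab27 to myosin, by 2.71, and Rims2, a partner of Rab3 in vesicle release, by 2.69. Sytl2, a partner of Rab27 that was clear of background on 1 FLAG IP array, fell by 1.77, Rabep2, a partner of Rab5 and Rab4, by 1.26, Rilpl2 by 1.22 and Mical1 by 1.20. Of 7 prenylation and extraction factors, the escort protein gene Chml rose by 2.16 and Rabac1, which encodes a membrane receptor for RAB proteins, fell by 2.29, and the other 5 were not called. Of 25 ARF, ARL and SAR genes, which encode another family of small GTPases of vesicle traffic, 6 were called higher (24.0%, beside 28.0% of all genes tested) and 5 lower (20.0%, beside 25.4%), with a median of -0.13. After normexp correction 1 was higher (beside 8.33% of all genes) and 1 lower (beside 9.16%). Relative to all genes their median was -0.20 without this correction, -0.44 with it, and -0.62 with no filter on dim probes. It was -0.15 without input replicate 1 and -0.20 without input replicate 2. Without FLAG IP replicate 1 it was 0.02, and without FLAG IP replicate 2 it was -0.34. Arl5b rose by 1.69, Arl15 by 1.42, Arl6, a gene of the cilium, by 1.28 and Arf3 by 1.14, while Arl2, which acts in the folding of tubulin, fell by 2.72 and Arl3, which releases lipid-bound cargo at the cilium, by 1.98. Arl16 fell by 1.57 and Arl5c by 1.52, each clear of background on 1 FLAG IP array. Of 4 tested RAB-like genes, Ift22, part of the transport trains of the cilium and also clear of background on 1 FLAG IP array, fell by 2.51 and the other 3 were not called.

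**Figure D5:**
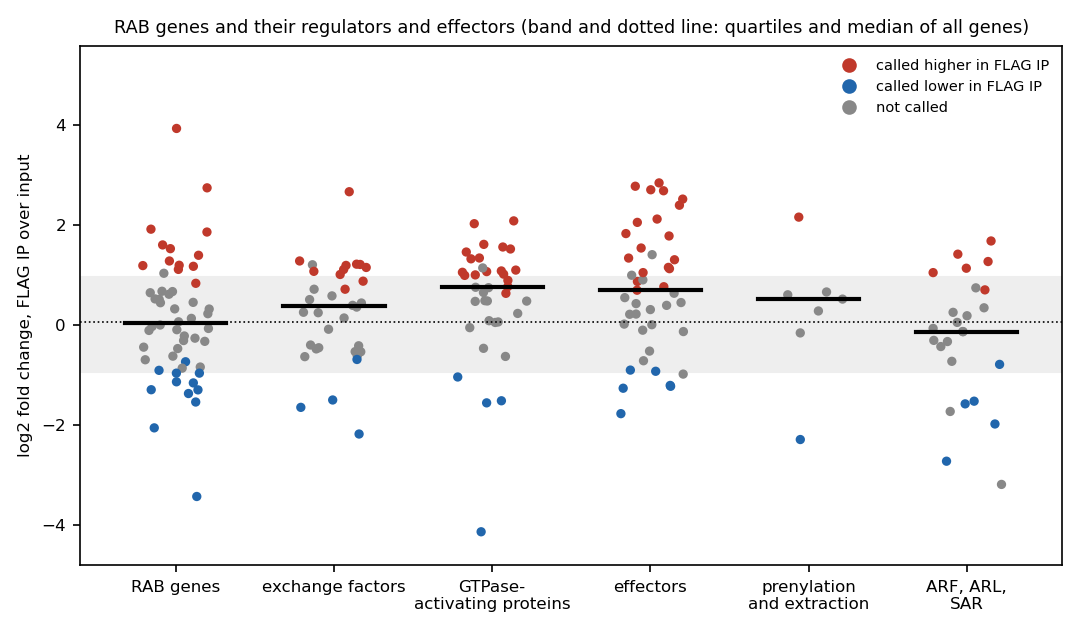
Log2 fold change of FLAG IP over input (vertical axis) for the tested RAB genes, 3 groups of their regulators, their effectors and the ARF, ARL and SAR genes; each point is a gene, bars are medians, and the grey band and dotted line are the quartiles and the median of all genes tested. The bar of the RAB genes lies at 0.04, near that of all genes at 0.07, and those of the GTPase-activating proteins and the effectors at 0.76 and 0.70.

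Of the 54 tested genes 44 were well above background on all 4 arrays, and the other 10 passed through the input alone, with 2 calls among them, Rab13 and Rab25. The counts depended on single arrays, with the same genes kept in each fit. Without input replicate 1, limma called 4 RAB genes higher (beside 9.37% of all genes) and 2 lower (beside 10.1%). Leaving out input replicate 2 gave 4 higher (beside 10.1%) and 2 lower (beside 11.3%). In each of these fits the lone array of a group is assumed to vary like the 2 arrays of the other. The median SD over all genes was 0.304 between the FLAG IP arrays and 0.060 between the input arrays, on the log2 scale. Leaving out FLAG IP replicate 1 gave 22 higher (beside 40.6%) and 21 lower (beside 40.7%). When FLAG IP replicate 2 was left out instead, 19 were called higher (beside 44.8%) and 20 lower (beside 37.4%). Rab39, Rab6b, Rab38, Rab33b and Rab34 were called in the same direction under every alternative that was run.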

How the data were processed

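RNA of 2 groups, FLAG IP and input, was measured on 4 arrays from 0.20 µg of RNA labelled with Cy3. Per the file headers, the deposited scanner files hold background-corrected intensity per spot, and the submitters' processing notes name Agilent Feature Extraction 9.5. The authors' deposited table gives, per probe, a ratio to input, a pooled intensity and a p-value that was not used. No sequences are printed, because none of the probes or transcripts is in the sources used here.

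The analysed value is log2 of the processed intensity after division by the 75th percentile over 43379 non-control spots, with outlier spots removed and spots of a probe averaged. No spot was saturated. A probe entered if both arrays of the FLAG IP or of the input marked it well above background, and the probe with the highest mean stood for its gene. Names came from RefSeq (31004 probes by gene ID, 155 by symbol, 309 by older symbol; 1108 kept the file's name and 8598 had none). limma 3.58.1 under R 4.3.3 (lmFit, eBayes, two-sided) fitted all genes. Scripts were tested on simulated data.

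The 10 highest and 10 lowest members could be named, as could members of families or genes with opposing calls. So could the 4 highest and 4 lowest called genes of each list. Rab7, Rab29, Rab37 and the other members were named as members of the family. The probes of Rab21, Rab12, Rab11a, Rab22a, Rab8b and Rab2a were named after their values were seen. The members and lists were chosen with earlier results of these data known. The number of arrays limits the precision. Some genes may not be reported here.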

Additional observations from a re-analysis of the deposited data

How the results depend on the processing

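The alternatives were normexp background correction (offset 50, on the median signals, since no mean signals were used here), quantile normalization, median centring, all probes without a filter on brightness, only probes above background on 4 arrays, averaging of the probes per gene, the slide or the replicate number as a block, and leaving out single arrays. Under normexp correction 5 RAB genes were called higher (9.26%, beside 8.33% of all genes) and 4 lower (7.41%, beside 9.16%). Of the RAB machinery 10 genes were higher (8.26%, beside 8.33%) and 5 lower (4.13%, beside 9.16%). The shares of all genes stand for 1272 higher and 1398 lower, and the median of all genes moved to 0.38. With no filter 10 of 56 RAB genes were higher (17.9%, beside 16.8% of all genes) and 7 lower (12.5%, beside 13.9%). Input replicate 1 is alone on its slide, so the slide as a block gave the values without that array: 4 RAB genes higher and 2 lower, 14 genes of the machinery higher and 4 lower, and 1431 of all genes higher and 1545 lower. Over the fits that leave out 1 array, RAB genes called higher numbered 4 to 22 and lower 2 to 21, the machinery 14 to 78 and 4 to 28, and all genes 1431 to 6845 and 1545 to 6212. Leaving out a FLAG IP array takes the spread from the tighter input arrays, and leaving out an input array takes it from the FLAG IP arrays; otherwise the cause was not tested.

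Over all genes, deviations of same-numbered arrays had a correlation of 0.050. This cannot settle whether the replicate numbers pair the arrays. The median SD was 0.304 between the FLAG IP arrays and 0.060 between the input arrays, and input replicate 1 is alone on its slide. With the replicate block 13 RAB genes were higher (24.1%, beside 27.1% of all genes) and 11 lower (20.4%, beside 25.4%). Of the 25 called RAB genes 24 kept their direction in all alternatives that tested them, the exception being Rab21 at 0.015 with its probes averaged, and 5 were called in all. Without FLAG IP replicate 1 and without FLAG IP replicate 2, Rab43 stood at -0.84 and 0.32 and Rab7 at 0.42 and -0.55; neither was called over all 4 arrays. The median over RAB genes lay between -0.19 and 0.22 in all alternatives. Relative to all genes it was -0.45 with no filter on dim probes, -0.18 without FLAG IP replicate 1 and -0.16 under normexp correction. In the other alternatives it lay between -0.11 and 0.07 relative to all genes. No spot below 0.147 of the scale was measured on FLAG IP replicate 1, which limits genes called lower.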
